A study of Homo sapiens with 24 samples.

Results

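HEK293T cells that had received an eGFP expression plasmid were compared with HEK293T cells that had received a scramble control plasmid, with 3 libraries for each plasmid. The 6 libraries were chosen by the cell line and the plasmid named in their labels, out of 24 libraries in the series. HEK293T is a human embryonic kidney line that carries the SV40 large T antigen. The eGFP cells received pcDNA3.1+/C-(K)DYK coding for flag-tagged eGFP, a green fluorescent protein whose mRNA is made by RNA polymerase II, and the scramble cells received a plasmid in which the U6 promoter, an RNA polymerase III promoter, drives a scrambled snaR-A sequence. Both were delivered with Lipofectamine 3000, and all cells were collected after 48 h. The study used these as the controls for cells given an SF3B2 plasmid and a U6-snaR plasmid, so the comparison asks how far the control arms differ from each other. The vectors differ in backbone, promoter and insert, and these cannot be told apart in this contrast. The 6 libraries hold no untransfected cells, so a higher level with eGFP and a lower level with scramble cannot be told apart either. The table holds human genes, and the eGFP transcript itself was not analysed here. All values come from bulk RNA, in which fewer cells of a type and less RNA per cell cannot be told apart.

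The gene lists described here follow known programmes. Hypoxia-inducible factors (HIFs) are stabilised when prolyl hydroxylases slow down, and they switch on glucose transporters, glycolytic enzymes and mitophagy genes. SREBP2 switches on cholesterol synthesis when sterols in the endoplasmic reticulum are low. The p53 protein, which large T antigen binds in HEK293T cells, switches on cell cycle arrest and apoptosis genes, while ATF4 and the unfolded protein response act on amino acid supply and protein folding.

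Each library held between 195185935 and 252892995 estimated counts in total over all genes. Levels are given as counts scaled to 1000000 per library (CPM) with TMM factors, and a gene was called well expressed where its mean over the 6 libraries was at least 10 CPM. A count of 3, taken as the floor, corresponded to 0.0119 to 0.0154 CPM. The third eGFP library stood apart from the others. Over 174 genes that A549 cells, the lung carcinoma line of the same series, expressed at 20 CPM or more and the other 5 HEK293T libraries at no more than 0.5 CPM, its level was a median 3.45% of that in the A549 eGFP libraries, against 0.038 to 0.06% in the other 5. The summed level of 12 A549 markers was 785.4 CPM in the third eGFP library and 14.6 to 25.5 CPM in the rest, on the scale of all 24 libraries. Of these markers 11 reached 1 CPM in the third eGFP library and 3 in each of the other 5, and SERPINA1 was at or near 0 in all 6. Of the 5 markers counted as well expressed, 2 rose with all 6 libraries, against 22.1% of well expressed genes. These 2, AKR1B10 and AKR1C2, reached 10 CPM only through the third eGFP library, so their rise was built into the choice by level. Without that library none rose and 3 fell, against 21.5% of well expressed genes higher and 34.9% lower. Because the third eGFP library stood apart, results are given with and without it where they differ. Among 12 markers of HEK293T cells, NEFM, LIN28B, SALL1, EYA1 and PAX2 were higher in all 6 libraries than in A549 cells, whereas STMN2 and CRMP1 were near 0 and UCHL1 and CDH2 were no higher than in A549 cells.

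Most well expressed genes differed by little. Of 10268 well expressed genes, 98.89% differed by no more than 2-fold, and 106 (1.03%) passed both an adjusted p under 0.05 and a log2 fold change beyond 1 in edgeR's quasi-likelihood test, 36 higher and 70 lower with eGFP. Small differences were common: at adjusted p under 0.05 alone, 2274 well expressed genes (22.1%) were higher and 3627 (35.3%) were lower with eGFP, and the median size of a called change was 0.34 on the log2 scale. The groups did not overlap for 6744 well expressed genes (65.7%); an exact two-sided permutation test of a single gene, 3 libraries against 3, cannot go below p = 0.1, and it gives 0.1 for such genes. Scaling by library size alone raised all log2 fold changes by a median of 0.105 and turned this split to 3356 higher and 2466 lower, so the balance of small changes depends on the scaling, and the lists are read against the median of well expressed genes, -0.064. Without the third eGFP library, 2211 (21.5%) of the same 10268 genes were higher and 3579 (34.9%) lower. With and without it, 2097 higher and 3334 lower genes were called both ways. Past both limits there were 134 genes without that library, 49 higher and 85 lower. Of these, 100 also passed with all 6 libraries and 34 did not, while 6 passed only with all 6. The 10 CPM level was not recomputed, so this set and the lists keep genes that reach it only through that library. AKR1C2 and KRT81 were the only called well expressed genes to turn direction, from 7.28 to -0.35 and from 8.59 to -0.25, and their levels in the first 2 eGFP libraries were 0.0411 to 0.15 CPM, against 89.3 and 67.2 CPM in the third.

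**Figure D1:**
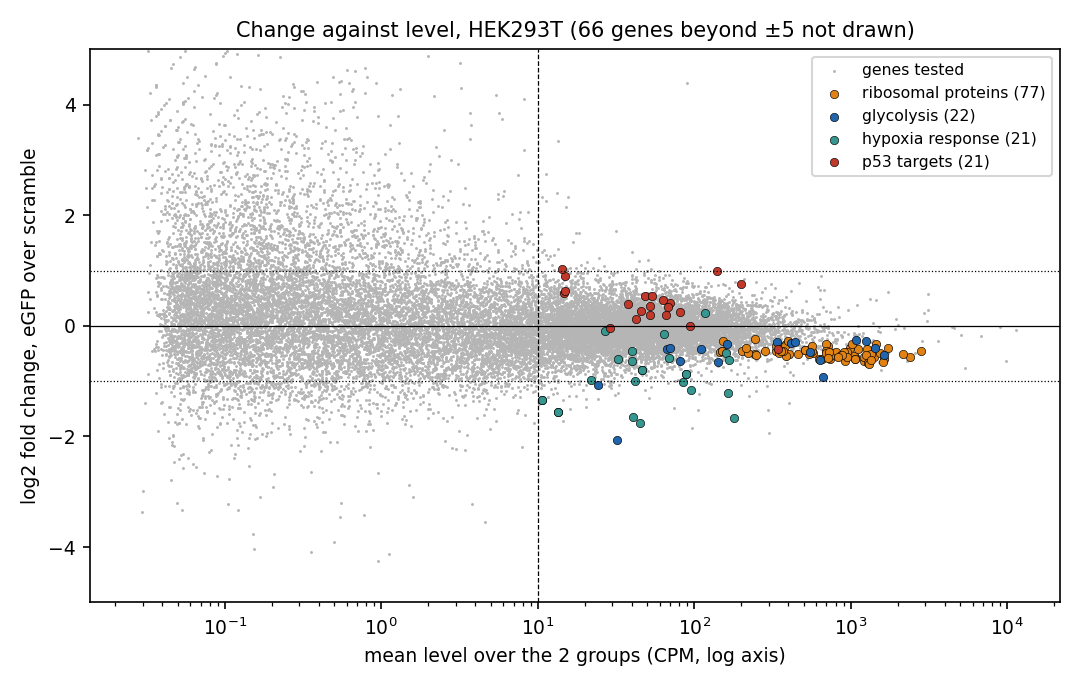
Log2 fold change of eGFP over scramble (vertical axis) against the mean level in CPM (horizontal log axis) for the genes tested, one point a gene, with the well expressed members of 4 lists in colour; dotted lines mark a log2 fold change of 1 and -1 and the dashed line 10 CPM. Large changes crowd to the left of 10 CPM, the ribosomal protein genes form a narrow band below 0, and 66 genes beyond the axis are not drawn.

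Larger fold changes lay among weakly expressed genes. Over all 22613 genes tested, 5183 (22.9%) were higher and 5845 (25.8%) lower at adjusted p under 0.05, and 2504 (11.1%) also passed the fold limit, 1831 of them higher with eGFP. Of these 2504 genes, 1887 had a mean under 1 CPM. Between 0.1 and 1 CPM, 1011 genes passed higher and 336 lower among 5452 tested, while at 100 CPM or more 1 gene passed higher and 14 lower among 2326. Past the fold limit, 952 of 15628 protein-coding genes tested were higher and 364 lower. The counts were 535 and 214 of 4394 long noncoding RNAs and 221 and 35 of 1078 pseudogenes. Of these classes, protein-coding genes had the smallest share past the limit and pseudogenes the largest. The plot of change against level shows this spread to the left of 10 CPM.

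The hypoxia response genes had the lowest median of the 36 lists. Of 21 well expressed members, 19 fell and 1 rose with eGFP, against 35.3% of well expressed genes lower and 22.1% higher. The median log2 fold change was -0.87. Without the third eGFP library the count was again 19 and 1, with 18 of the lower members shared. NDRG1, a stress-responsive differentiation gene induced by HIF, stood at 85.9, 84.5 and 86.7 CPM in the eGFP libraries and 289, 285 and 244 CPM in the scramble libraries. The 2 groups were far apart for NDRG1, with a log2 fold change of -1.67 ± 0.071 (SE; edgeR adjusted p = 7.37e-05). HILPDA, a lipid droplet protein that inhibits triglyceride lipolysis, measured 22, 18.5 and 21.4 CPM with eGFP and 75.2, 72.6 and 61.7 CPM with scramble (-1.76 ± 0.093, adjusted p = 7.37e-05). LOX, the oxidase that cross-links collagen, measured 22.5, 16.4 and 20.3 CPM against 63.8, 66.8 and 55 CPM (-1.65 ± 0.12, adjusted p = 0.00012). In each of these genes every eGFP library lay below every scramble library.

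Mitophagy and feedback genes of the same response fell too. BNIP3, a mitophagy receptor of the outer mitochondrial membrane, was at 63.5, 52.9 and 61.6 CPM with eGFP and 138, 141 and 118 CPM with scramble (-1.16 ± 0.091, adjusted p = 0.000141; 22.1% of its 31-base words are shared with another gene). DDIT4, an inhibitor of mTORC1 that both HIF and ATF4 can induce, was at 106, 95.2 and 97.6 CPM and 233, 254 and 204 CPM (-1.21 ± 0.086, adjusted p = 0.00011). EGLN3, a prolyl hydroxylase that marks HIF for degradation and is itself a HIF target, measured 15.4, 14.1 and 14.8 CPM against 29.5, 30.6 and 27.4 CPM (-0.98 ± 0.064). P4HA2, a collagen prolyl hydroxylase, shifted by -0.99 ± 0.062 and its groups did not overlap. BNIP3, EGLN3, P4HA2, VEGFA, ENO2, PGK1, MDM2 and ASNS, members named only to complete a count of 5 or fewer, and the stretches of sequence shown were picked with their values in view. The exceptions were KDM3A, a histone demethylase, which rose by 0.23 ± 0.043 (adjusted p = 0.00369), and CA12, which was not called with all 6 libraries. Without the third eGFP library CA12 was called lower, with a log2 fold change of -0.54 in place of -0.085. VEGFA, the angiogenic growth factor, measured 63.3, 58.7 and 59.7 CPM and 69.1, 63.4 and 69.9 CPM and was called only narrowly (-0.16 ± 0.054, adjusted p = 0.0442); 11 of the 14 alternatives lost the call, and its adjusted p without the third eGFP library was 0.125.

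The core word of the HIF binding site, ACGTG, was looked for in the 250 bases before the first start that RefSeq lists for each gene, on both strands (CACGT is the same word on the other strand). It was present in 9 of 17 hypoxia list promoters with a RefSeq sequence (52.9%) and in 7 of 20 glycolysis promoters (35%), against 24.5% of promoters of well expressed genes and 18.7% of all promoters. A match is a description of these letters and not of binding. The following 30-base stretches, from RefSeq on GRCh38.p14 and read 5′ to 3′ on the strand of the gene, show the word in capitals for 4 of the 5 hypoxia list genes that fell most among those with a RefSeq sequence. PFKFB4, the other, and P4HA2 and EGLN3 lack these letters in this window, and HILPDA, NDRG1, BNIP3L and VEGFA were not among the 17. The window of DDIT4 lies at chr10:72273787-72273816 on the plus strand, and on the minus strand lie those of LOX at chr5:122078340-122078369, BNIP3 at chr10:131982039-131982068 and ALDOC at chr17:28576906-28576935.
DDIT4: agaacgttgcttACGTGcgcccggagtcca
LOX: tccaatcgcattACGTGaacaaatagctga
BNIP3: cgcacgcgccgcACGTGccacacgcacccc
ALDOC: ccccggaggagtCACGTagctctgcgacat
The words start 125, 98, 133 and 28 bases before the start of DDIT4, LOX, BNIP3 and ALDOC, upstream of the first exon.

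Glycolysis fell almost as a whole. Of 22 well expressed members, 21 fell and none rose, PKM being the exception, against 35.3% of well expressed genes lower. The median log2 fold change was -0.50. PKM was called lower too without the third eGFP library, which gave 22 of 22. The hypoxia and glycolysis lists share ALDOC, PDK1, PFKFB4 and SLC2A1, so their counts are not independent. Changes were widest at the transporter SLC2A3, which brings glucose into the cell, with 13.5, 8.82 and 14.9 CPM in the eGFP libraries and 58.2, 50.8 and 47 CPM in the scramble libraries (-2.06 ± 0.19, adjusted p = 0.000209). Of the 31-base words in its transcripts, 27.8% also occur in transcripts of another gene, so its reads may be divided and its value is uncertain; shares of such shared words over 20% are given beside other genes. ALDOC, an aldolase of brain and hypoxic cells, was at 7.35, 6.25 and 6.97 CPM and 21.4, 22.7 and 16.1 CPM (-1.55 ± 0.14, adjusted p = 0.000199). PFKFB4, which sets the activator of phosphofructokinase, was at 6.02, 4.88 and 7.16 CPM and 16, 15.9 and 13.8 CPM (-1.34 ± 0.14, adjusted p = 0.00038). No eGFP library reached the lowest scramble library for these 3 genes.

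Other enzymes moved in the same direction by less than SLC2A3. PGK1, which makes the first ATP of the pathway, measured 484, 430.5 and 462 CPM with eGFP and 913, 951 and 764 CPM with scramble (-0.93 ± 0.094, adjusted p = 0.000291), and ENO2, the neuronal enolase, 15.7, 14.8 and 16.5 CPM and 36.1, 30.7 and 32.2 CPM (-1.07 ± 0.076). GAPDH, a widely used reference gene, measured 1351, 1261 and 1373 CPM and 1996, 2057 and 1709 CPM (-0.53 ± 0.089, adjusted p = 0.00232; 24.7% of its words shared). The other reference gene examined, ACTB, gave 1265, 1455 and 1512 CPM and 1394, 1423 and 1265 CPM, groups that overlap, and was not called (0.05 ± 0.09, adjusted p = 0.659). Gluconeogenesis held 5 well expressed members, of which PPARGC1A rose (0.28) and SLC37A4 fell (-0.59).

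**Figure D2:**
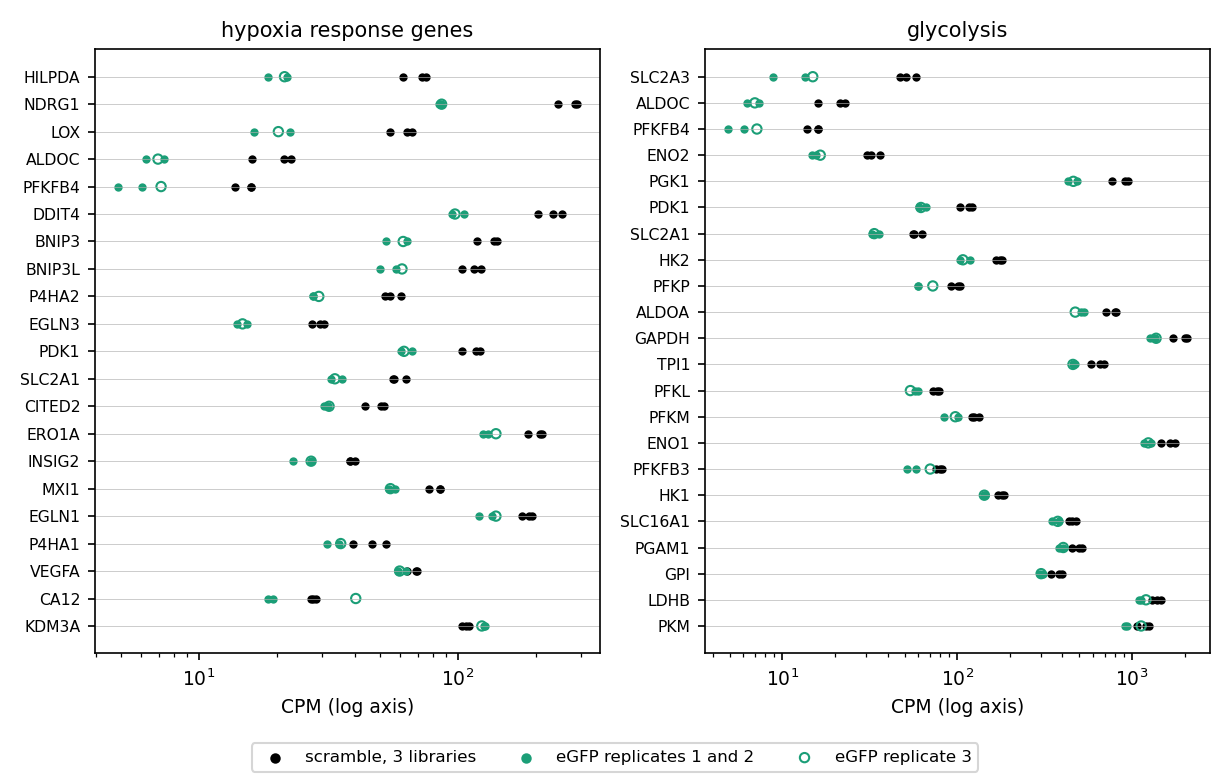
Level in CPM (log axis) of each well expressed member of the hypoxia response list (left) and the glycolysis list (right), with 1 point a library; black points are the 3 scramble libraries, filled green points eGFP replicates 1 and 2, open green circles eGFP replicate 3. For most genes the green points lie left of the black ones, with NDRG1 at 84.5 to 86.7 CPM against 244 to 289 CPM, and KDM3A lies the other way.

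Ribosomal protein genes fell without exception. All 77 well expressed members were lower with eGFP, against 35.3% of well expressed genes, with log2 fold changes from -0.69 to -0.23 and a median of -0.48; the count was 77 without the third eGFP library and 76 when library size alone set the scale. RPL41, one of the shortest proteins of the ribosome, measured 956, 986 and 1048 CPM with eGFP and 1618, 1784 and 1417 CPM with scramble (-0.69 ± 0.10, adjusted p = 0.00102). RPL39 of the exit tunnel measured 1005, 911 and 1068 CPM and 1575, 1712 and 1443 CPM (-0.67 ± 0.092). RPS2 of the small subunit measured 2242, 2507 and 2357 CPM and 3319, 3613 and 2866 CPM (-0.46 ± 0.10, adjusted p = 0.00808). The third scramble library was the closest to the eGFP group in each of these. Many members have processed pseudogenes, and 22.5% of RPL41 words, 33.5% of RPS3A words and 47.2% of RPS2 words occur in another gene, so single values are uncertain.

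Translation factors lay close to well expressed genes as a whole. Of 37 well expressed members, 10 rose and 16 fell, against 22.1% of well expressed genes higher and 35.3% lower, with a median of -0.08 that becomes 0.03 when library size alone sets the scale. EEF1A1, the factor that brings aminoacyl-tRNA to the ribosome, fell, with 7638, 7239 and 8097 CPM against 12014, 13074 and 10668 CPM (-0.64 ± 0.11, adjusted p = 0.00287; 20.8% of its words shared). EIF4A2, an RNA helicase of initiation, was at 309, 292 and 319 CPM and 479.7, 481 and 429 CPM (-0.59 ± 0.067). EEF1G shifted by -0.63 ± 0.10, but 97.6% of its words also lie in another gene and its value is uncertain. Among the risers, EIF5, which triggers GTP hydrolysis at the start codon, stood at 608, 572 and 604 CPM with eGFP and 335, 346 and 356 CPM with scramble (0.78 ± 0.055, adjusted p = 0.000107). The scaffolds EIF4G2 (0.37 ± 0.068) and EIF4G1 (0.34 ± 0.06) rose by less.

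Nuclear-encoded subunits of the respiratory chain and ATP synthase fell in 61 of 71 well expressed members, against 35.3% of well expressed genes lower. None was higher, and the median was -0.30. COX7A2, a cytochrome c oxidase subunit, measured 91.9, 89.7 and 97.4 CPM with eGFP and 152, 159 and 133 CPM with scramble (-0.67 ± 0.073, adjusted p = 0.000404). NDUFB4, of complex I, measured 77.9, 75.1 and 84.1 CPM and 119.8, 125 and 109 CPM (-0.58 ± 0.066), and COX6A1, with 20.6% of its words shared, shifted by -0.61 ± 0.069. Scaling by library size alone left 39 lower and 2 higher. The 13 mRNAs made in mitochondria gave no call in edgeR's quasi-likelihood test (1 higher and 1 lower at an unadjusted p under 0.05; 1 higher and 1 lower with edgeR's exact test and 1 lower with DESeq2), and their spread within groups was wide, with MT-CO1, 66.7% of whose words are shared, at 7935, 8299 and 10594 CPM and 9749, 6166 and 11230.5 CPM (-0.02 ± 0.23, adjusted p = 0.957). ATP5F1B, the catalytic subunit of ATP synthase, was called only narrowly (-0.23 ± 0.072, adjusted p = 0.0301; 0.0463 without the third eGFP library), and 7 of the 14 alternatives lost the call. SDHAF4, an assembly factor of complex II, was among the genes that fell most of all well expressed genes, at 8.91, 7.6 and 8.66 CPM and 24.9, 26.8 and 19.8 CPM (-1.51 ± 0.12, adjusted p = 0.000148).

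Exon length moved with the result by a little. Among well expressed protein-coding genes split into 5 near-equal groups by exon length, the median log2 fold change ran from -0.11 in the group of shortest genes to -0.03 in the group of longest. The 39 ribosomal protein genes among the shortest were all lower with a median of -0.48, and that group without ribosomal protein and respiratory chain genes had a median of -0.09. The part of length in these results was not tested.

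Cholesterol synthesis fell in most of its steps. Of 23 well expressed members of sterol synthesis and uptake, 15 fell and 2 rose, against 35.3% of well expressed genes lower and 22.1% higher. The median was -0.30, and the count of lower members was 15 without the third eGFP library. INSIG1, which holds the SREBP complex in the endoplasmic reticulum and is itself an SREBP2 target, stood at 239, 197 and 232 CPM with eGFP and 608, 604 and 537 CPM with scramble (-1.39 ± 0.089, adjusted p = 9.15e-05). IDI1, which isomerises isopentenyl diphosphate, was at 193, 165 and 199 CPM and 397, 416 and 369.8 CPM (-1.08 ± 0.083, adjusted p = 0.00013). MSMO1, a methylsterol oxidase, was at 84.8, 76.9 and 89.1 CPM and 184, 182 and 154 CPM (-1.05 ± 0.085). None of the eGFP libraries came within the range of the scramble libraries in these 3 genes. SQLE, which makes squalene epoxide, fell to 289, 307 and 306 CPM from 575, 572 and 514 CPM (-0.88 ± 0.064), and HMGCS1, at the entry of the mevalonate pathway, was at 200.2, 177 and 211 CPM and 304, 302 and 294 CPM (-0.61 ± 0.07, adjusted p = 0.000469). The 2 members that rose were MVK (0.36 ± 0.09) and ACAT2 (0.23 ± 0.045).

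Fatty acid synthesis moved less. Of 16 well expressed members 4 fell (ACSL4, ELOVL5, SCD and ACSS2) and none rose. The share that fell was below the 35.3% of well expressed genes lower, and 22.1% of well expressed genes were higher. Without the third eGFP library 8 fell, against 34.9% of well expressed genes. SCD, the desaturase that makes oleic acid, measured 1122, 1098 and 1230.4 CPM with eGFP and 1578, 1577 and 1473 CPM with scramble (-0.42 ± 0.073, adjusted p = 0.00256). ELOVL5, an elongase, measured 171, 162 and 181 CPM and 239, 236 and 222 CPM (-0.44 ± 0.059). In both the third eGFP library was the highest of its group.

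**Figure D3:**
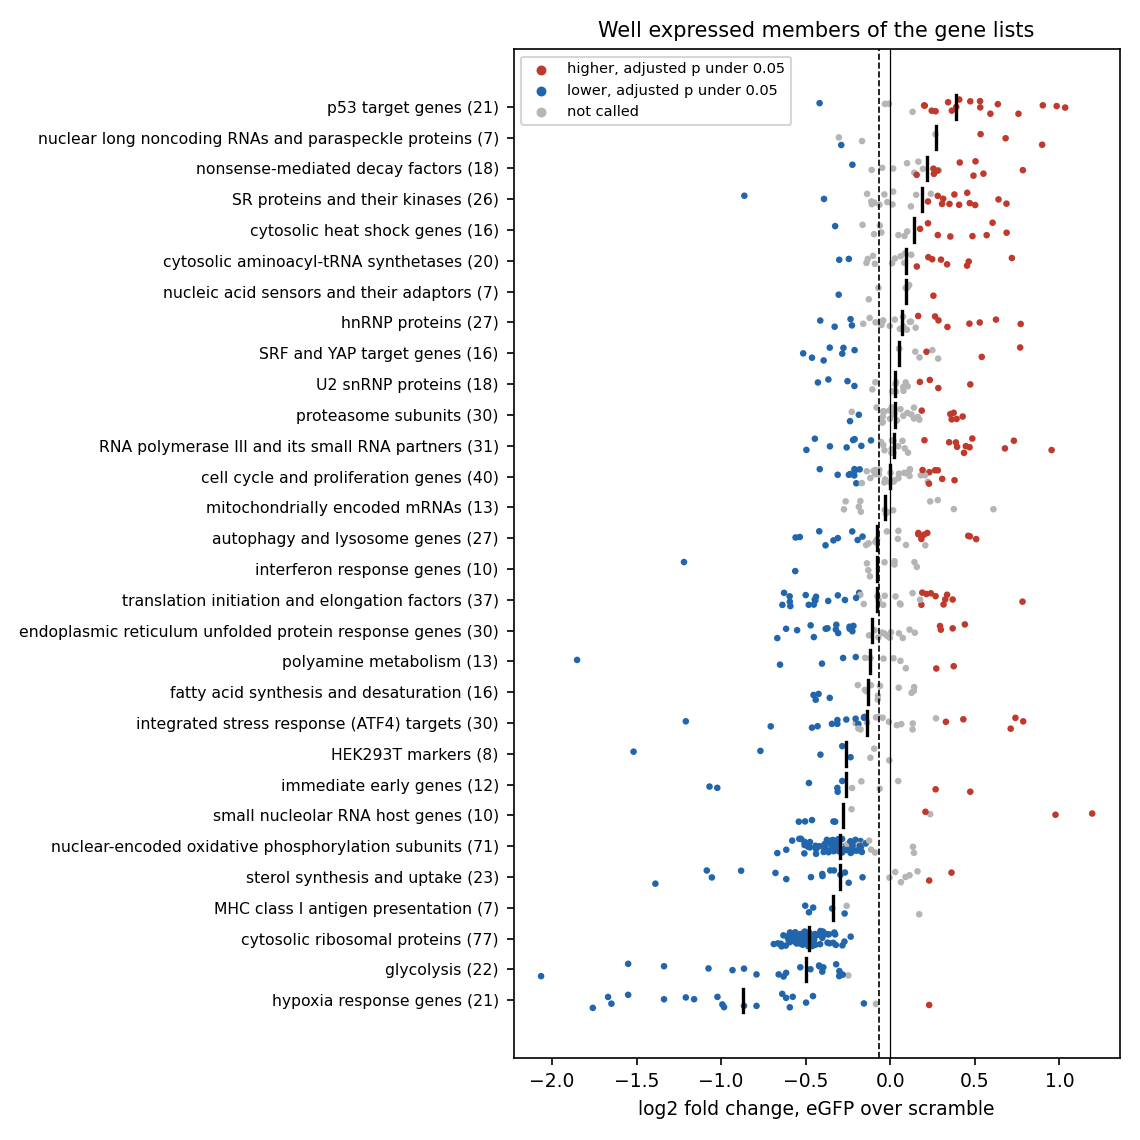
Log2 fold change of eGFP over scramble for each well expressed member of the gene lists with at least 7 such members, 1 point a gene. The NRF2 targets, whose count depended on the third eGFP library, are not drawn. Points are red for higher and blue for lower at adjusted p under 0.05 and grey for not called. The bar is the median of the list, the dashed line the median of well expressed genes and the number in brackets the members. The hypoxia list has its median at -0.87 and the p53 targets at 0.39, at opposite ends. Vertical scatter within a list has no meaning.

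Targets of p53 rose. Of 21 well expressed members, 17 were higher and 1 lower with eGFP, against 22.1% of well expressed genes higher, with a median of 0.39. Both counts stood without the third eGFP library and when library size alone set the scale. MDM2, the ubiquitin ligase that degrades p53, measured 242, 257 and 254 CPM with eGFP and 142, 149 and 154 CPM with scramble (0.76 ± 0.051, adjusted p = 0.000102). AEN, an exonuclease of apoptosis, measured 183, 201 and 171 CPM and 96.6, 95.5 and 89 CPM (0.98 ± 0.069, adjusted p = 0.000108). PHLDA3, an inhibitor of AKT, measured 18.6, 21.9 and 17.4 CPM and 9.62, 9.63 and 9.01 CPM (1.03 ± 0.10, adjusted p = 0.000221). For these 3 genes the lowest eGFP library lay above the highest scramble library. CDKN1A, the p21 inhibitor of cyclin-dependent kinases, rose by less, from 34.1, 34.2 and 29.4 CPM with scramble to 40.9, 44.7 and 42.3 CPM with eGFP (0.39 ± 0.069, adjusted p = 0.00296). SPATA18, of mitochondrial quality control, shifted by 0.90 ± 0.07. The member that fell was CCNG1, cyclin G1, at 320.0, 263 and 300.3 CPM and 403, 408 and 369 CPM (-0.42 ± 0.082).

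Cell cycle genes gave no common direction. Of 40 well expressed members 7 rose and 9 fell with a median of 0.00, against 22.1% of well expressed genes higher and 35.3% lower. The split became 14 and 3 when library size alone set the scale and 7 and 4 without the first scramble library. CDC25A, the phosphatase that activates CDK2, rose (0.38 ± 0.063), and CDK1, the mitotic kinase, fell (-0.42 ± 0.067), with 164, 154 and 175 CPM against 220.0, 232 and 206 CPM. TOP2A, a topoisomerase of dividing cells, was called narrowly (-0.20 ± 0.064, adjusted p = 0.0325; 7 alternatives lost the call). Of 34 replication-dependent histone genes tested, 10 rose and none fell, against 22.9% of all genes tested higher and 25.8% lower. Only 3 were well expressed, H2BC12, H1-2 and H4C14, and H2BC12 was the one called (0.41, with 71% of its words shared). The libraries were made from poly(A)+ RNA, in which most of these mRNAs are rare.

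Targets of the integrated stress response were called in both directions. Of 30 well expressed members 5 rose and 12 fell, shares near the 22.1% higher and 35.3% lower of well expressed genes, and the split was 7 and 5 when library size alone set the scale and 5 and 7 without the first scramble library. SLC3A2, the heavy chain of amino acid transporters, rose to 222, 248 and 221 CPM from 138, 135 and 128 CPM (0.79 ± 0.062, adjusted p = 0.000141). PPP1R15A, which restores translation by dephosphorylating eIF2, rose to 72.5, 90.8 and 81.1 CPM from 53.7, 47.4 and 45.2 CPM (0.74 ± 0.10), and DDIT3, the CHOP factor, to 14.3, 14.5 and 14.4 CPM from 10.8, 10.8 and 10.4 CPM (0.43 ± 0.062). CTH, which makes cysteine from cystathionine, shifted by 0.33 ± 0.054 and SLC7A11 rose too. Of those that fell, MTHFD2, of the mitochondrial folate cycle, went to 227, 213 and 235 CPM from 303, 334 and 292 CPM (-0.46 ± 0.068), and ASNS, asparagine synthetase, fell by 0.43 on the log2 scale. ATF4 itself, with 26.4% of its words shared, was not called, at 532, 560.1 and 527 CPM and 623, 673 and 569 CPM (-0.20 ± 0.074, adjusted p = 0.0516), and 5 alternatives called it lower. Of 20 cytosolic aminoacyl-tRNA synthetases, 8 rose and 2 fell with a median of 0.09; the count of risers was 5 without the third scramble library. CARS1, which charges cysteine tRNA, led them at 91, 98.1 and 84 CPM and 53.8, 57.5 and 54.7 CPM (0.72 ± 0.063, adjusted p = 0.000194).

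Folding genes were described in separate lists for the endoplasmic reticulum and the cytosol, and the difference between the lists was not tested. In the unfolded protein response list 14 of 30 well expressed members fell and 4 rose, against 35.3% of well expressed genes lower and 22.1% higher, and its median of -0.11 lay near that of well expressed genes, -0.064. When library size alone set the scale 11 fell and 6 rose. Of 16 cytosolic heat shock genes 8 rose and 1 fell (median 0.14). HSPA5, the BiP chaperone, fell to 620.1, 628 and 674 CPM from 946, 862 and 822 CPM (-0.45 ± 0.073, adjusted p = 0.00197), and HSP90B1, its partner GRP94, shifted by -0.31 ± 0.066. ERO1A, the oxidase that forms disulfide bonds and also a HIF target, fell to 125, 131 and 141 CPM from 208, 212 and 187 CPM (-0.62 ± 0.068). In the cytosol DNAJA1, a J-domain cochaperone, rose to 387, 391 and 428 CPM from 243, 252 and 254 CPM (0.69 ± 0.058, adjusted p = 0.000161), and HSPH1, an exchange factor of HSP70, rose to 321, 324 and 339 CPM from 210.3, 218 and 219 CPM (0.60 ± 0.049). BAG3, of chaperone-assisted autophagy, shifted by 0.57 ± 0.055. HSP90AA1, the heat-inducible HSP90 with 26.4% of its words shared, was not called and its groups overlap, at 3088, 3184 and 3276 CPM and 2927, 3179 and 2901 CPM (0.08 ± 0.077, adjusted p = 0.401). The small heat shock gene HSPB1 was called lower (-0.33 ± 0.10, adjusted p = 0.0301), a call that 5 alternatives lost. Without the first scramble library 5 heat shock genes rose and none fell. In the proteasome 6 of 30 rose and 2 fell (median 0.03), and 15 rose and none fell when library size alone set the scale.

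Splicing regulators of the SR family tended upwards. Of 26 well expressed SR proteins and their kinases, 12 rose and 2 fell, with a median of 0.19. Of all well expressed genes, 22.1% were higher and 35.3% lower. SRSF6, an exonic enhancer-binding factor, measured 341, 348 and 354 CPM with eGFP and 219, 207 and 222 CPM with scramble (0.69 ± 0.05, adjusted p = 0.000117). SRSF1, the founding member, measured 774, 757 and 809 CPM and 497, 467 and 537 CPM (0.64 ± 0.069, 32.3% of its words shared), and TRA2B 301, 322 and 309.7 CPM and 216, 230.2 and 213 CPM (0.50 ± 0.054). The eGFP libraries were the higher group in all 3. The 2 that fell were CLK2, a kinase that phosphorylates SR proteins, at 17.8, 20 and 19.4 CPM and 38, 28.4 and 37.8 CPM (-0.86 ± 0.12, adjusted p = 0.000863), and PNISR (-0.39 ± 0.086). These counts are of whole genes, so transcripts that retain an intron or carry a poison exon are not separated.

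Other RNA-binding groups were mixed. Of 27 hnRNP proteins 8 rose and 4 fell, against 22.1% of well expressed genes higher and 35.3% lower. PTBP2, the neuronal PTB paralogue, rose to 115, 119 and 109.6 CPM from 66.4, 66.7 and 68.3 CPM (0.77 ± 0.046, adjusted p = 8.42e-05), and HNRNPM to 481, 521 and 510.2 CPM from 319, 318 and 343 CPM (0.62 ± 0.058), whereas HNRNPA1, an abundant repressor of splice sites, fell to 2396, 2378 and 2482 CPM from 3191, 3442 and 3036 CPM (-0.41 ± 0.079). Among 18 U2 snRNP proteins, which bind the branch point, 4 rose and 4 fell, a balance that became 9 and 2 when library size alone set the scale and 2 and 3 without the first scramble library. SF3B2, the U2 protein that the study overexpressed in other cells, measured 355, 393 and 351 CPM with eGFP and 437, 429 and 406 CPM with scramble (-0.21 ± 0.063, adjusted p = 0.0263); its adjusted p was 0.0754 without the third eGFP library and 6 alternatives lost the call. SF3B4 rose (0.47 ± 0.054; 24.4% of its words shared), SF3B6 fell (-0.43 ± 0.056) and SF3B1 was not called (0.01 ± 0.055, adjusted p = 0.871).

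Nonsense-mediated decay factors rose in 9 of 18 members and fell in 1 (median 0.22), against 22.1% of well expressed genes higher and 35.3% lower. SMG6, the endonuclease that cuts the target mRNA, measured 61.1, 64.2 and 57.6 CPM with eGFP and 34.8, 35.6 and 35.9 CPM with scramble (0.78 ± 0.049, adjusted p = 8.48e-05), and SMG8, a regulator of the SMG1 kinase, 54.5, 57.2 and 54.4 CPM and 39.9, 39.8 and 37.4 CPM (0.50 ± 0.045). Among 7 well expressed genes of nuclear long noncoding RNAs and paraspeckles, 3 proteins rose and NORAD fell, with 50.8% of its words shared. SFPQ, a paraspeckle protein, stood at 809, 916 and 809.6 CPM with eGFP and 454, 434 and 473 CPM with scramble (0.90 ± 0.072, adjusted p = 0.000145), and PSPC1 at 96.9, 103 and 97.9 CPM and 61.3, 64.5 and 59.9 CPM (0.68 ± 0.048); RBM14 was the third (0.53 ± 0.038). NEAT1, the RNA that paraspeckles form on, was not called.

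RNA polymerase III genes bear on this contrast because the scramble plasmid uses a U6 promoter. Of 31 well expressed subunits, factors and partners, 11 rose and 8 fell with a median of 0.02, against 22.1% of well expressed genes higher and 35.3% lower. Without the first scramble library 10 and 4 were counted. POLR3C, a subunit of the initiation subcomplex, measured 108, 113 and 101 CPM with eGFP and 54.4, 56.8 and 55 CPM with scramble (0.95 ± 0.053, adjusted p = 7.53e-05). Of the SNAPc complex that binds U6-type promoters, SNAPC4 rose (0.73 ± 0.12), with 37.7, 37.5 and 32.9 CPM against 22.1, 17.9 and 25.1 CPM, while SNAPC3 fell (-0.45 ± 0.048), with 68.8, 69.5 and 72.6 CPM against 97.7, 98.4 and 91.1 CPM. BRF2, the initiation factor used at the U6 promoter, rose to 19.7, 21.8 and 18.2 CPM from 12.7, 13.1 and 11.6 CPM (0.68 ± 0.086). Among 10 small nucleolar RNA host genes 3 rose and 5 fell: SNHG15 was at 70.4, 77.9 and 64.2 CPM with eGFP and 32.1, 31.5 and 29.3 CPM with scramble (1.19 ± 0.075, adjusted p = 8.52e-05), SNHG17 rose too (0.98 ± 0.12), and GAS5 (-0.46 ± 0.091) and SNHG3 (-0.54 ± 0.078) fell.

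The innate immune lists held few called genes among their well expressed members, beside 22.1% of well expressed genes higher and 35.3% lower. Of 44 interferon response genes 10 were well expressed; 2 of these fell and none rose, with a median of -0.08 that becomes 0.03 when library size alone sets the scale. IFITM1, an antiviral membrane protein, was at 7.76, 8.01 and 8.28 CPM with eGFP and 20, 20.8 and 15.2 CPM with scramble (-1.22 ± 0.12, adjusted p = 0.00027; 37.8% of its words shared), and LGALS3BP was the other (-0.56 ± 0.07). Over the 42 members tested at any level, 10 rose and 8 fell with a median of 0.27. These counts lay near the shares of all genes tested, 22.9% higher and 25.8% lower. Weakly expressed genes as a whole had a median of 0.214 between 0.1 and 1 CPM and of 0.329 under 0.1 CPM. ISG15, a ubiquitin-like modifier, was weakly expressed and rose, at 2.5, 2.67 and 2.52 CPM and 1.06, 1.1 and 1.16 CPM (1.22 ± 0.11, adjusted p = 0.000196). Among 7 well expressed nucleic acid sensors and adaptors SAMHD1, which depletes dNTPs, rose (0.26 ± 0.04).

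Class I antigen presentation fell in 5 of 7 well expressed members with a median of -0.34, against 35.3% of well expressed genes lower. HLA-C, a classical heavy chain, was at 57.3, 59.5 and 53.4 CPM with eGFP and 82.4, 81.1 and 74 CPM with scramble (-0.48 ± 0.06, adjusted p = 0.000681), and B2M, the invariant light chain, at 144, 151 and 157 CPM and 189.8, 200.3 and 183 CPM (-0.34 ± 0.056, adjusted p = 0.00197). HLA-E shifted by -0.50 ± 0.081 and HLA-B by -0.46 ± 0.058, the latter with 38.1% of its words shared. Of 4 well expressed NF-kappaB targets, NFKB1, which codes for the p50 precursor, rose to 42.3, 45.5 and 43.5 CPM from 29, 28.8 and 29.7 CPM (0.59 ± 0.044), and NFKB2, which codes for the p52 precursor, fell to 23, 20.7 and 24.6 CPM from 34.2, 31.6 and 31.8 CPM (-0.51 ± 0.072).

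Of 12 well expressed immediate early genes 6 fell and 2 rose, against 35.3% of well expressed genes lower and 22.1% higher, with a median of -0.26. MYC, which drives ribosome and metabolic genes, measured 77.5, 73.1 and 84.1 CPM with eGFP and 159.7, 166 and 151 CPM with scramble (-1.02 ± 0.066, adjusted p = 9.15e-05). ID2, an inhibitor of helix-loop-helix factors, measured 129, 123 and 133 CPM and 270.2, 285 and 253 CPM (-1.07 ± 0.061, adjusted p = 7.7e-05), and JUN, a subunit of AP-1, 221, 236 and 210.2 CPM and 331, 321 and 280.0 CPM (-0.48 ± 0.077). All 3 groups of eGFP values lay under the scramble values. IER2 rose (0.47 ± 0.10), and FOS, below 10 CPM, was called lower (2.92, 2.73 and 3.51 CPM against 4.92, 4.01 and 4.04 CPM, -0.50 ± 0.14, adjusted p = 0.0192), a call lost under 3 alternatives. Of 16 SRF and YAP targets 3 rose and 7 fell, or 6 and 5 when library size alone set the scale. AMOTL2, a YAP target that feeds back on the pathway, rose (0.77 ± 0.074), and FLNA, filamin A, fell (-0.39 ± 0.056).

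Metal, polyamine and lysosome genes gave single large changes rather than a common shift, beside 22.1% of well expressed genes higher and 35.3% lower. SAT1, the acetyltransferase that starts polyamine breakdown, stood at 35, 30.6 and 60.8 CPM with eGFP and 177, 147 and 133 CPM with scramble (-1.85 ± 0.25, adjusted p = 0.000959). Its value in the third eGFP library was the highest of the eGFP group, and the log2 fold change without that library was -2.21. ODC1, the first enzyme of polyamine synthesis, rose (0.38 ± 0.075), while DHPS (-0.65 ± 0.046) and SMS (-0.40 ± 0.06), with 33.1 and 34.4% of their words shared, fell, so that 2 of 13 members rose and 5 fell. Of 3 well expressed zinc genes MTF1, the metal sensor, and SLC30A1, the zinc exporter that it induces, rose (0.64 ± 0.059 and 0.59 ± 0.066), and the importer SLC39A10 fell to 152, 133 and 160.3 CPM from 270.4, 273 and 260.2 CPM (-0.85 ± 0.073, adjusted p = 0.000172). Autophagy and lysosome genes split into 8 risen and 9 fallen of 27, and 5 and 9 without the third eGFP library, 4 and 6 without the first scramble library, and 9 and 6 when library size alone set the scale; ATP6V0D1, of the proton pump, rose (0.51 ± 0.046) and GLA, an alpha-galactosidase, fell (-0.56 ± 0.057).

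The count of NRF2 targets depended on the third eGFP library. With all 6 libraries 3 of 16 rose and 2 fell, against 22.1% of well expressed genes higher and 35.3% lower. Without the third eGFP library 2 rose and 7 fell, against 21.5% and 34.9%, with a median of -0.10 in place of 0.15. AKR1B10, which is also an A549 marker, had a log2 fold change of 9.09 with that library. SLC7A11, the cystine transporter, was at 71.8, 61.5 and 96.5 CPM with eGFP and 42.7, 46.6 and 51 CPM with scramble (0.71 ± 0.15, adjusted p = 0.00727), and 0.52 without that library (adjusted p = 0.00325). HMOX1, heme oxygenase, was at 17.5, 19 and 26.9 CPM and 13.4, 13.1 and 12.4 CPM, with 0.50 without it (adjusted p = 0.00132). Both genes were highest in the third eGFP library and rose with and without it.

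**Figure D4:**
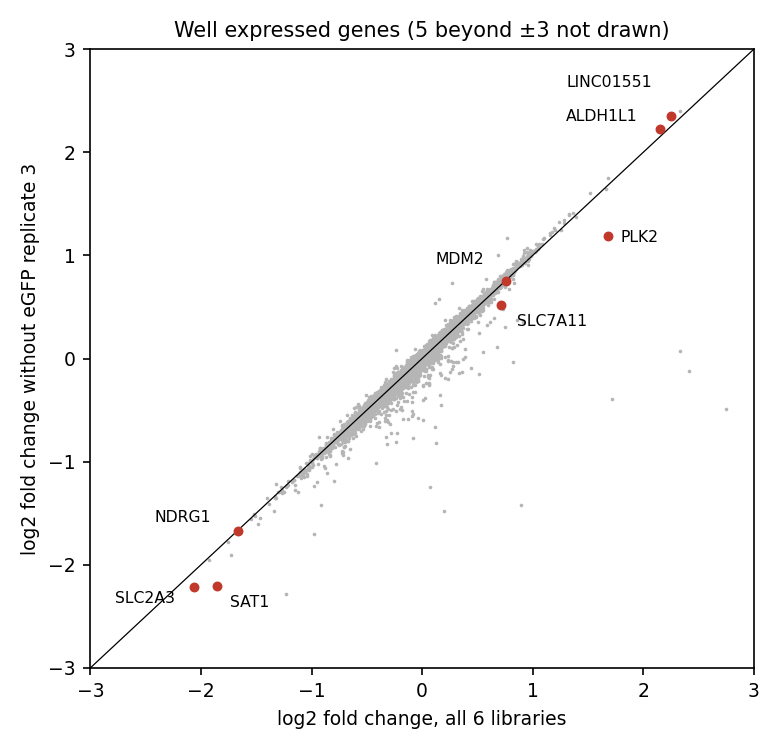
Log2 fold change of eGFP over scramble from all 6 libraries (horizontal axis) and without eGFP replicate 3 (vertical axis) for well expressed genes, 1 grey point a gene, with named genes in red and the line of equal values; 5 genes beyond the axes are not drawn. Most points lie on the line, and a trail below it, with PLK2 at 1.69 and 1.19, holds genes whose value rests in part on that library.

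HEK293T markers were not level between the arms. Of 8 well expressed markers 5 fell and none rose, with a median of -0.26, against 35.3% of well expressed genes lower. Over the 11 markers tested at any level 5 fell and 1 rose, with a median of -0.12. Of all genes tested, 25.8% were lower and 22.9% higher. EYA1, below 10 CPM, lay higher with eGFP, at 6.93, 7.21 and 6.21 CPM against 4.98, 5.27 and 5.21 CPM on the scale of all 24 libraries. NEFM, a neurofilament subunit that this line expresses, was at 152, 158 and 152 CPM with eGFP and 462, 443 and 418 CPM with scramble (-1.52 ± 0.056, adjusted p = 6.56e-05), and NEFL, its light chain partner, at 90.6, 87 and 87.6 CPM and 155, 159 and 137 CPM (-0.77 ± 0.063). TUBB2B, a neuronal tubulin with 25.5% of its words shared, shifted by -0.41 ± 0.063, while LIN28B, UCHL1 and ZIC2 were not called. Their part in the other results was not tested.

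Among single genes, those that rose most with eGFP and passed with and without the third eGFP library were led by LINC01551, a long noncoding RNA at chr14:28765640-28823817 on the plus strand (GRCh38, GENCODE 44). It measured 21.2, 18.9 and 16.2 CPM with eGFP and 3.52, 4.14 and 4.17 CPM with scramble (2.25 ± 0.12, adjusted p = 7.53e-05). ALDH1L1, a folate enzyme at chr3:126103562-126197994 on the minus strand, measured 24.3, 27.4 and 22.1 CPM and 5.54, 6.1 and 5.01 CPM (2.15 ± 0.11, adjusted p = 7.37e-05). OVGP1, an oviduct glycoprotein of the chitinase family, measured 27.1, 31.9 and 25.2 CPM and 9.54, 7.31 and 9.47 CPM (1.68 ± 0.13). In all 3 the lowest eGFP value was above the highest scramble value, a separation that the rule for the 12 largest rises required. RRN3, the initiation factor of RNA polymerase I, rose to 61.6, 58 and 52.3 CPM from 23, 21.6 and 23.6 CPM (1.33 ± 0.068, adjusted p = 7.37e-05; 30.4% of its words shared). PLK2, a polo-like kinase, rose by 1.69 ± 0.31, with 18.3, 19.3 and 42.3 CPM against 7.84, 8.5 and 8.48 CPM, and by 1.19 without the third eGFP library, where it was highest. CFAP69 (1.28 ± 0.076) and CFAP44 (1.36 ± 0.12; 23.8% of its words shared), both of the cilium and flagellum, rose, and SMG1P2 rose by 1.28 ± 0.081 with 98.4% of its words in another gene, which makes its value uncertain. ZNF79, ZNF551, PVT1 and TIMM23B-AGAP6 complete the 12 that rose most by the rule; 92.9% of the words of TIMM23B-AGAP6 are shared.

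ZNF79, a zinc finger gene, stood at 23.8, 28.7 and 22.2 CPM with eGFP and 8.63, 8.69 and 8.72 CPM with scramble (1.52 ± 0.10, adjusted p = 9.15e-05). Genes named ZNF, counted after their values were seen, numbered 288 among well expressed genes, of which 144 were higher and 50 lower, against 22.1% and 35.3% of well expressed genes, with a median of 0.185. Without the third eGFP library 144 were higher and 47 lower. Zinc finger genes share sequence within clusters, and reads may be divided among them.

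Among the genes that fell most, ADAMTS1, a secreted metalloprotease, was at 135, 109 and 129 CPM with eGFP and 516, 455 and 451 CPM with scramble (-1.93 ± 0.10, adjusted p = 7.37e-05). NRN1, neuritin, a membrane-anchored neurite growth factor, was at 56, 52.4 and 55.1 CPM and 164, 169 and 135 CPM (-1.52 ± 0.088, adjusted p = 8.19e-05). BHLHE40, a transcriptional repressor of the clock that HIF also induces, was at 39.3, 32.1 and 45.9 CPM and 117, 111 and 99.2 CPM (-1.48 ± 0.13, adjusted p = 0.000176). STC1, a secreted glycoprotein, completes the 12 with SLC2A3, SAT1, HILPDA, NDRG1, LOX, ALDOC, NEFM and SDHAF4 given above. NME1, a nucleoside diphosphate kinase with 20.5% of its words shared, was not called and its groups overlap, at 172, 169 and 176 CPM and 168, 179 and 153 CPM (0.05 ± 0.064, adjusted p = 0.578).

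The other HEK293T arms of the series set these levels in context. The snaR-A plasmid also uses the U6 promoter, SF3B2 was overexpressed from its own plasmid, and no test was made against these arms here. Levels in this paragraph are on the scale of all 12 HEK293T libraries. The summed level of the hypoxia response list was 1129, 1055 and 1132 CPM in the eGFP libraries, 2026, 2034 and 1817 CPM in the scramble libraries, 1439.6, 1266 and 1312 CPM in the snaR-A libraries and 1360.2, 1314 and 1246 CPM in the SF3B2 libraries. Glycolysis summed to 7752, 7610.1 and 7932 CPM, 10891, 11135 and 9793 CPM, 8743, 8453 and 8624 CPM and 9042, 8529.6 and 8616 CPM in the same order. In both lists the scramble libraries were the highest of the 12 and the eGFP libraries the lowest, with the other arms between them and nearer to eGFP.

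Ribosomal protein mRNAs summed to 50667, 51021 and 51317 CPM with eGFP, 72809, 77889 and 66301 CPM with scramble, 57873, 55001 and 56642 CPM with snaR-A and 52506, 53579 and 54816 CPM with SF3B2. Sterol genes summed to 2587, 2476 and 2584 CPM, 3890.4, 3867 and 3625 CPM, 3058, 2896 and 2893 CPM and 2688, 2818 and 2762 CPM in that order. Here too all other arms lay below every scramble library. The p53 targets, 1405, 1408 and 1349 CPM in the scramble libraries, were higher in every library of the other arms, at 1682, 1689 and 1644 CPM with eGFP, 1605, 1642 and 1585 CPM with snaR-A and 1555, 1689 and 1748 CPM with SF3B2. The SR list did not follow this order, with 7450.2, 7462 and 7545 CPM with eGFP, 6696, 6224 and 7002 CPM with scramble, 6569.7, 6944 and 7024 CPM with snaR-A and 8722, 7875 and 7522 CPM with SF3B2, so that snaR-A and scramble libraries overlapped.

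**Figure D5:**
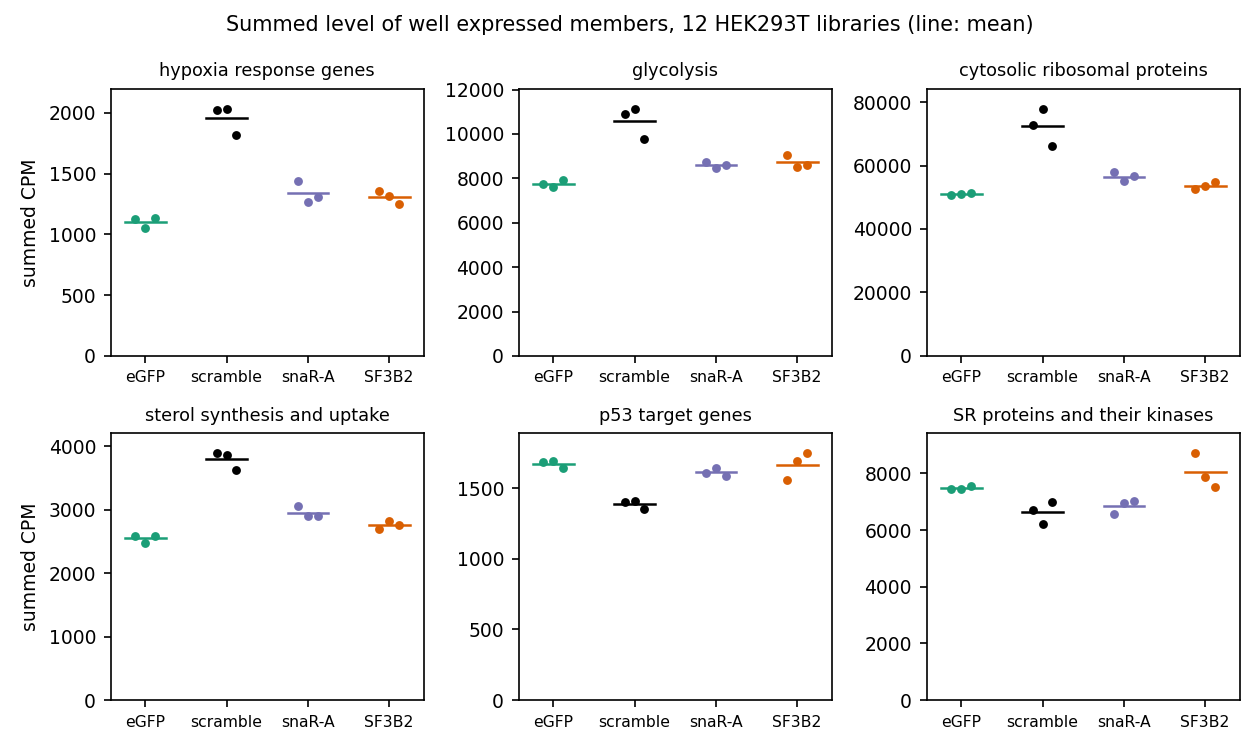
Summed CPM of the well expressed members of 6 lists in the 12 HEK293T libraries, 1 point a library in the colour of its plasmid, with the mean of 3 as a line; each vertical axis starts at 0. The hypoxia sum is 1055 to 1132 CPM with eGFP and 1817 to 2034 CPM with scramble, and the snaR-A and SF3B2 points lie between.

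Single genes gave the same layout. On this scale NDRG1 averaged 84.8 CPM with eGFP, 269 CPM with scramble, 124 CPM with snaR-A and 131 CPM with SF3B2, and INSIG1 averaged 220.3, 576, 356 and 274 CPM. AEN averaged 183, 92.6, 174 and 142 CPM. LINC01551 did not, with 18.6 CPM with eGFP against 3.89 CPM with scramble, 4.29 CPM with snaR-A and 8.82 CPM with SF3B2, so that the snaR-A average lay near the scramble average for this gene.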

How the data were processed

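RNA was taken 48 h after transfection, rRNA-depleted, poly(A)-enriched and made into stranded libraries, which the authors sequenced, trimmed with Trim Galore and quantified with Salmon (hg38); the transcript release and the step that summed transcripts to genes are not given in the sources used here. The deposited values are estimated counts per gene as the authors made them, 51.0% of them not whole, and they were rounded. The 3 eGFP and 3 scramble libraries are described as biological replicates; the p-values measure the spread between these libraries. Genes were filtered with filterByExpr, scaled with TMM and tested with edgeR 4.0.16 (quasi-likelihood test, Benjamini-Hochberg adjustment over all 22613 genes tested; errors are SE of the log2 fold change). R 4.3.3, limma 3.58.1, DESeq2 1.42.0 and Python 3.11.15 were used. Of 60236 genes, 5333 had no symbol and held 2.56% of the counts. Data were simulated from these libraries with 200 genes changed, all at 10 CPM or more and evenly split by direction. The test without eGFP replicate 3 recovered 70 of 100 genes changed by 0.5 and 99 of 100 changed by 1 on the log2 scale. With all 6 libraries it recovered 77 and 99 of 100. It also called 25 of 22200 unchanged genes without that replicate and 18 of 21989 with all 6 libraries. The real contrast holds far more called genes, many of them weakly expressed, so these rates may not carry over to it. Named genes were the 12 with the largest change in each direction among well expressed genes called with and without eGFP replicate 3, up to 3 per direction in each list, the highest member of each list and 10 fixed genes; a few genes are not reported here. The gene lists and members were chosen with earlier results of these data known. Alternatives were another test, scaling or filter, a fit of all 12 HEK293T libraries, a replicate block and each library left out.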

Additional observations from a re-analysis of the deposited data

How the results depend on the processing

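The number of genes past both limits, 2504, ran from 1698 (at least 10 counts in every library) to 2948 (no low-count filter) and from 2282 to 2721 with 1 library left out; of these the higher ones, 1831, numbered 1176 with at least 10 counts in every library, a setting that tests fewer genes. Among well expressed genes, a mean of at least 50 CPM left 25 past both limits, 1080 higher and 1720 lower, by its own construction. Of the genes named in the text, 140 were followed through the 14 alternatives. AKR1C2, KRT81, AKR1B10, CA12 and PKM were not among them. AKR1C2 and KRT81 turned direction without the third eGFP library, as given above. Of the 134 called genes among the 140, none turned direction under any alternative, and 127 kept their call under all of them. Genes named for a large change or as list movers had to be called with and without the third eGFP library. For those genes, keeping the call under that alternative was set by the choice.

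The replicate block (same replicate number in both groups) gave 2355 genes past both limits, 2060 well expressed genes higher and 3267 lower. The numbers do not pair the libraries, since deviations of same-numbered libraries correlated at 0.00119, 0.00462 and -0.0517 and no other label ties them.

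Genes that were not called turned direction as follows, and the cause was not tested. MT-CO1 went from -0.017 to 0.005 with DESeq2 and with RLE scaling, 0.006 with at least 10 counts in every library, 0.015 with the replicate block and 0.082 with library size alone, and ranged from -0.238 to 0.159 with 1 library left out. With 1 library left out SF3B1 ranged from -0.011 to 0.029, ACTB from -0.007 to 0.121 and NME1 from -0.022 to 0.093.

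The main limits are 3 libraries per group, vectors that differ in several ways, no untransfected cells, and A549 RNA in 1 eGFP library. Counts of listed members moved by over 1.5 times in 69 of 576 cases with other settings and 57 of 432 with 1 library left out.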
